A study of Mus musculus with 20 samples.

Results

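Primary mammary tumors grown from Mvt1 cells were compared with the same cells in culture, to ask what the tissue of the host adds to the profile of the line. Mvt1 is a metastatic mouse mammary carcinoma line derived from an FVB tumor driven by MMTV-Myc and Vegf transgenes. All cells of this comparison carried a lentiviral scramble control shRNA and had been selected with puromycin, and the labels give their genotype as wild type. The tumors came from orthotopic injection of these cells into the fourth mammary fat pad of syngeneic, immune competent female FVB/nJ mice about 6 weeks old, and were taken 30 days after implantation. There were 3 scramble tumors, 1 from each of 3 experiments, and 3 plates of cultured scramble cells, which together made 6 of the 20 samples of the series. The RNA of each tumor came from a small section of bulk tissue, so it holds cancer cells and host cells in unknown shares.

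By the study's methods and design text the tumors were measured as mRNA, in RPKM, reads scaled to transcript length and library size, and the cells as total RNA, in FPKM, the same for fragments, and both are per length. The sample labels name total RNA as the extracted molecule in both groups. RNA selection as the methods give it, gene annotation, unit and tissue changed together between the tables, and whether the aligner did is not given in the sources used here, so what each adds to a difference cannot be told apart, and no p-value is given between the tables. Each gene was instead given its percentile within each library, from 0 to 100, over the 18993 genes listed in both tables. A gene was called higher or lower where the 3 tumor percentiles all lay on the same side of the 3 cell percentiles and the means differed by at least 20 points. A second description was used for genes with at least 1 RPKM in all 3 tumors and at most 0.1 FPKM in all 3 cell libraries, named near 0 in the cells. It does not require a call by rank.

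A carcinoma grown in a mammary fat pad is invaded by macrophages, lymphocytes and mast cells, draws in blood vessels, and is bedded in fibroblasts that secrete the collagen matrix, with fat and muscle at its edge. None of these host cells is present in a plate of a carcinoma line. In bulk RNA a gene that is high in a tumor and silent in the line can come from host cells or from cancer cells that turned it on in the animal, and a low level cannot separate fewer cells of a type from less RNA per cell.

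Replicates agreed closely. Spearman's correlation across genes was 0.973 to 0.987 between the tumors and 0.985 to 0.986 between the plates, and 0.806 to 0.827 between a tumor and a plate. The median SD of a gene's percentile was 1.89 points in the tumors and 0.721 points in the cells. Genes listed at 0 made up 22.4% to 24.0% of the shared genes in a tumor and 27.1% to 28.3% in a plate. The read totals of the cell table are unknown. Between tumors, 507 to 546 genes under 0.05 RPKM were compared, and at least 97.6% of their ratios were ratios of whole numbers up to 12, within 0.1%. The commonest ratio was within 0.2% of 1 for each pair of tumors, so by these low genes 1 read was worth nearly the same in the 3 tumors.

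Of the 18993 genes, 1940 (10.2%) ranked higher in the tumors and 1578 (8.31%) ranked lower. On the log2 share of each library's summed value the split was 2796 higher to 5966 lower, and with each library centred on its median gene it was 3491 to 2700. Cytosolic ribosomal protein genes took 31.3% to 33.7% of the summed RPKM of a tumor and 4.88% to 5.15% of the summed FPKM of a plate. The ranks are bounded, so a gene above percentile 80 in the cells could not be called higher. Among the 1940 genes, 1115 (57.5%) had a mean of at most 0.1 FPKM in the cells. The near 0 description took in 635 genes (3.34%), of which 612 were protein coding and 283 were listed at 0 in all 3 plates. These 635 genes held 2.88% to 3.36% of the summed RPKM of a tumor. The reverse description, at least 1 FPKM in every plate and at most 0.1 RPKM in every tumor, took in 53 genes (0.279%), 19 of them protein coding.

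The same comparison in the other arm of the study, 3 tumors and 3 plates that carried the *Rnaseh2c* shRNA sh4, drew on separate libraries made in the same way. There, 570 of the 635 near 0 genes (89.8%) were again near 0 in the cells and read in the tumors, and they were 79.5% of the 717 such genes of that arm. Of the genes called by rank, 1737 of 1940 (89.5%) were called higher there, 85.4% of the 2033 of that arm, and 1328 of 1578 (84.2%) were called lower, 79.4% of its 1673. The reverse description overlapped less, with 22 of 53 genes (41.5%), which were 61.1% of the 36 genes of the sh4 arm. In both arms the tumors and plates differ in the same RNA selection, annotation and unit. Effects of these would recur in both arms, so the overlap cannot tell them apart from effects of tissue.

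**Figure D1:**
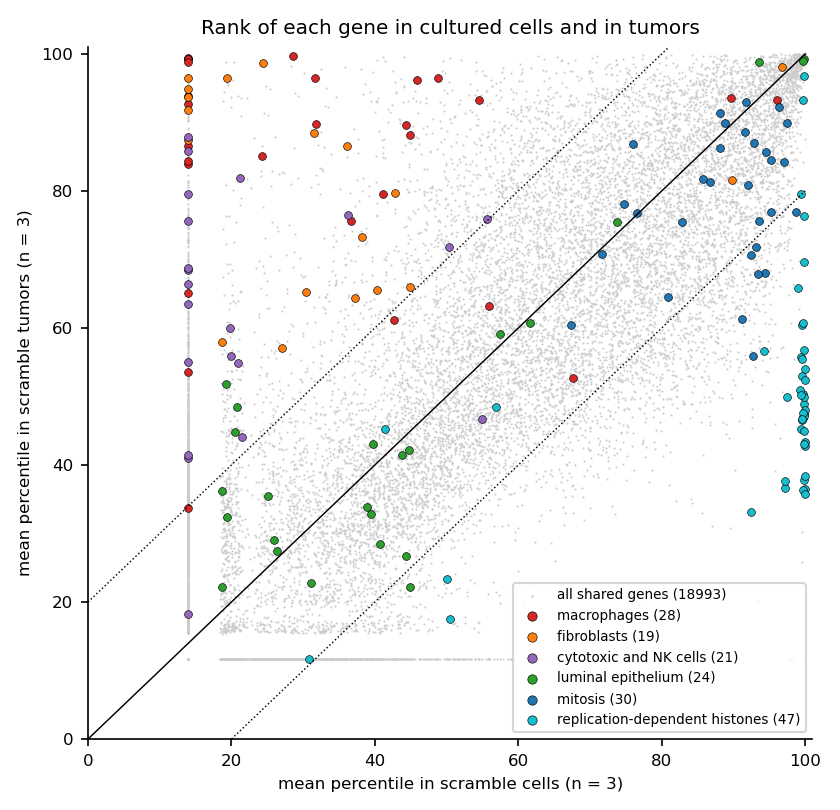
Mean percentile of each shared gene in 3 scramble plates (horizontal axis, 0 to 100) and 3 scramble tumors (vertical axis, 0 to 100). Grey points are all 18993 genes, coloured points are 6 gene lists with their sizes, the solid line marks equal rank and the dotted lines a difference of 20 points; many macrophage, fibroblast and cytotoxic genes lie above the upper dotted line or at the left edge, where genes are listed at 0 in the cells, and most replication-dependent histone genes lie along the right edge.

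Genes of leukocytes ranked far higher in the tumors. Of 20 genes shared by all leukocytes 18 ranked higher and 14 were near 0 in the cells, and their median percentile was 80.4 to 83.5 in the tumors and 30.2 to 33.6 in the plates. The median difference of the list was 53.03 points, beside -2.23 over all shared genes. *Ptprc*, the CD45 phosphatase that defines leukocytes, read 14.9, 7.61 and 14.4 RPKM in tumors 1 to 3, and 0.0143, 0 and 0 FPKM in the plates. *Laptm5*, a lysosomal membrane protein of blood cells, read 89.9, 45.2 and 74.1 RPKM against 0, 0 and 0.00572 FPKM. Tumor 2 had the lowest value for both genes, and the tumors and plates were far apart.

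Macrophage genes had the highest summed level of the host cell lists. Of 28 macrophage genes 22 ranked higher, none ranked lower and 15 were near 0 in the cells, with a median percentile of 89.9 to 91.1 in the tumors. Their summed level was 3462 to 4114 RPKM in a tumor and 46.7 to 55.9 FPKM in a plate. The chains of complement C1q, which macrophages secrete, were the 3 genes that gained most in rank in the whole comparison. *C1qa* read 509, 631 and 551 RPKM, *C1qb* 363, 434 and 420 RPKM, and *C1qc* 386, 453 and 430 RPKM, and all were listed at 0 in every plate. The 3 tumors agreed closely on these genes.

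Other macrophage genes followed. *Tyrobp*, the signaling adaptor DAP12, read 264, 222 and 231 RPKM and was listed at 0 in the cells. *Lyz2*, the lysozyme of myeloid cells, read 1953, 1360 and 1220 RPKM against 0, 0.0155 and 0.0678 FPKM. *Lyz2* shares near-identical sequence with *Lyz1*, so its level is uncertain where reads were split between them. *Emr1*, which encodes the F4/80 antigen, read 17.4, 12.7 and 16.1 RPKM with 0 in every plate. *Csf1r*, the receptor that macrophages need for survival, read 40.5, 41.0 and 39.4 RPKM, the tightest of these genes, and was not silent in culture, at 1.30, 1.40 and 1.38 FPKM. *Vsig4*, a complement receptor of resident macrophages, spread more widely, at 3.37, 2.27 and 1.11 RPKM against 0 in the cells.

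Several genes often taken as macrophage markers were read in the line itself and were not called. *Cd68*, a lysosomal glycoprotein, read 48.8, 34.2 and 45.1 RPKM in the tumors and 12.96, 14.2 and 15.03 FPKM in the plates, a difference of 3.98 points. *Cd14*, the co-receptor for bacterial lipopolysaccharide, read 40.2, 43.7 and 37.6 RPKM against 25.1, 30.5 and 32.2 FPKM, a difference of -2.74 points. *Itgb2*, the β2 integrin of leukocytes, read 21.1, 32.0 and 25.1 RPKM against 35.6, 40.4 and 39.4 FPKM. None of these 3 genes met the call, and all were read in a line with no leukocytes. In the cells *Cd68* was at percentile 89.6 and *Itgb2* at 97.2, where a call of higher is not possible. For both, the missed call does not show an equal level.

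Complement genes ranked higher as well. Of 19 measured genes 14 ranked higher and 11 were near 0 in the cells, with a median difference of 43.5 points. *Serping1*, the C1 inhibitor, which is also on the fibroblast list, read 80.0, 62.7 and 86.7 RPKM and was listed at 0 in all plates. *Cfp*, properdin, which stabilizes the alternative convertase, read 51.8, 70.2 and 39.3 RPKM against 0.845, 0.724 and 0.853 FPKM. *Hc*, which encodes the terminal component C5, stayed low, at 0.287, 0.133 and 0.168 RPKM against 0.00934, 0.00297 and 0.0207 FPKM, and was not called.

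MHC class II genes, which professional antigen-presenting cells use to show peptides to helper T cells, were almost absent from the line. Of 10 genes 9 ranked higher and 8 were near 0 in the cells, with a median difference of 58.7 points. Their summed level was 1168 to 1459 RPKM in a tumor and 0.368 to 0.426 FPKM in a plate. *H2-Ab1*, a β chain, read 179, 176 and 201 RPKM, and *H2-Aa*, its α chain partner, read 195, 134 and 192 RPKM, and both were listed at 0 in every plate. *Cd74*, the invariant chain that fills the groove until peptide is loaded, read 888, 782 and 960 RPKM against 0.102, 0.0993 and 0.175 FPKM. The peptide-loading chain *H2-DMa* read 28.9, 23.3 and 29.7 RPKM against 0.193, 0.191 and 0.225 FPKM. *Ciita*, the coactivator that switches these genes on, read 2.92, 1.86 and 2.76 RPKM against 0.0589, 0.0870 and 0.0265 FPKM. It was near 0 in the cells, but at 17.5 points it did not reach the call by rank.

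The promoters of these genes carry X and Y boxes, which RFX and NF-Y bind and to which CIITA is then recruited. They are shown because 9 of the 10 genes moved together. RefSeq promoters (GRCm38.p6, 250 bases before to 50 after the start) were matched for 7 of the 10 genes, with 8 promoters, and were searched on both strands for GCAAC, a core of the X box, followed after 15 to 30 bases by ATTGG, the core of the Y box. The letters searched were chosen after these sequences had been seen. The pair was found in 4 of the 8 promoters and in 274 of all 32851 promoters (0.834%), and ATTGG or its complement alone in 7 of 8 and in 37.4% of all. The windows follow with the matched letters in capitals, and lie on mouse chromosome 17.
H2-Oa, chr17:34092297-34092346, plus strand: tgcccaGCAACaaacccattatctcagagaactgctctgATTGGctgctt
H2-Ob, chr17:34238812-34238858, plus strand: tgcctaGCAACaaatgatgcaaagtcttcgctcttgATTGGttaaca
H2-Aa, chr17:34287861-34287910, minus strand: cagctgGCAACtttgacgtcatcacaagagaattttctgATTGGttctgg
H2-Eb1, chr17:34305770-34305818, plus strand: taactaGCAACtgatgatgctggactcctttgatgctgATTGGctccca
These are matches of letters, with 25 to 28 bases between the boxes. *H2-Eb1* read 7.28, 8.14 and 7.24 RPKM, *H2-Oa* 2.20, 2.69 and 2.78 RPKM and *H2-Ob* 1.57, 1.27 and 1.79 RPKM. Of these *H2-Eb1* and *H2-Ob* were listed at 0 in all plates, and *H2-Oa* at 0.0139, 0 and 0 FPKM.

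MHC class I differed in that Mvt1 expressed it strongly in culture. The list of class I and peptide processing genes had a median percentile of 89.7 to 90.6 in the plates and 98.3 to 98.4 in the tumors. From such a rank in the cells a call of higher is not possible, so few calls do not show an equal level. On the log2 scales the median gene of this list was 1.21 to 1.96 higher in the tumors. *B2m*, the shared light chain, read 2757, 1010 and 2394 RPKM against 217, 256 and 257 FPKM, which is percentile 99.8 in the tumors and 99.7 in the cells. Beside 10.2% of all genes, 3 of the 14 genes of class I and peptide processing (21.4%) ranked higher. These were *Psme2*, a subunit of the PA28 proteasome activator, at 257, 426 and 265 RPKM against 3.21, 3.36 and 3.53 FPKM, the immunoproteasome subunit *Psmb8*, at 132, 141 and 124 RPKM against 4.04, 5.49 and 5.41 FPKM, and *Tap1*, a peptide transporter subunit, at 13.7, 10.7 and 12.97 RPKM against 1.75, 1.94 and 1.81 FPKM. In the sh4 arm 5 of the 14 ranked higher.

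**Figure D2:**
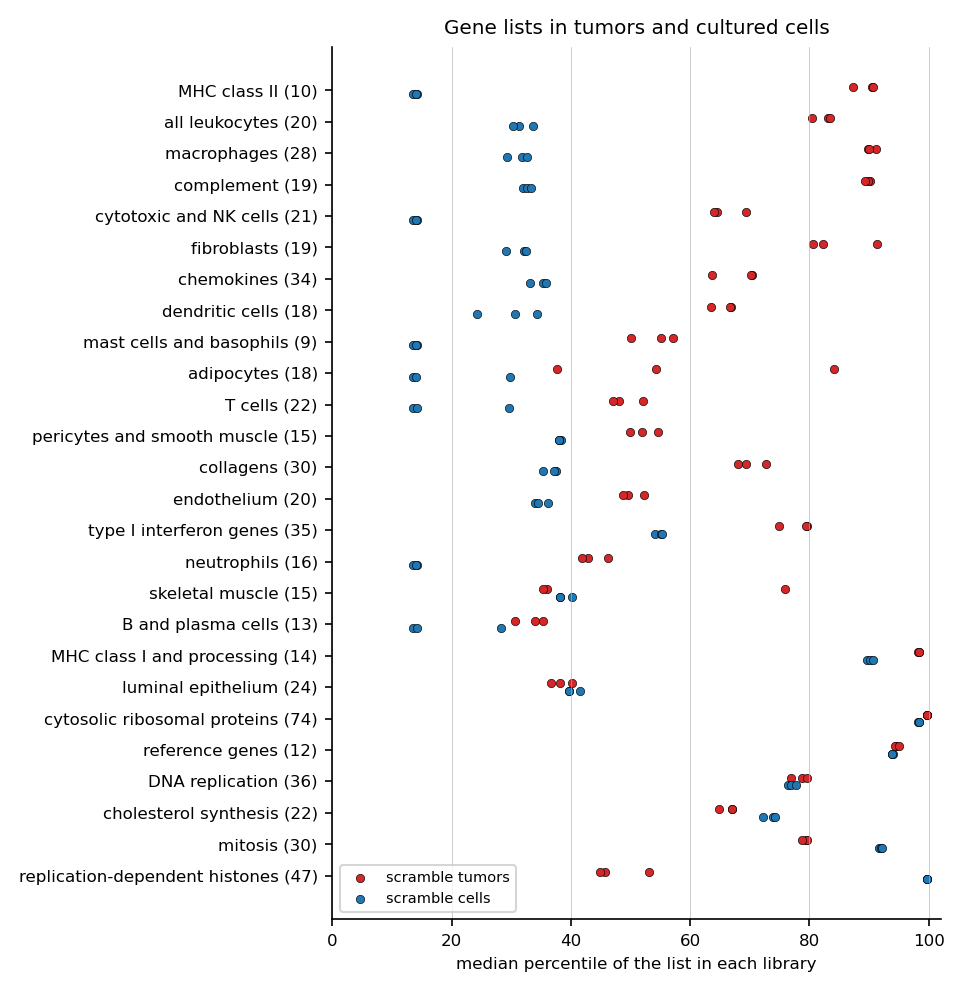
Median percentile (0 to 100) of 26 gene lists in each of the 3 scramble tumors (red) and 3 scramble plates (blue), 1 point per library, with the number of measured genes in brackets. MHC class II lies at 87.2 to 90.6 in the tumors and at 13.6 to 14.1 in the plates, while replication-dependent histones lie at 45.0 to 53.2 and at 99.7.

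Dendritic cells were read through 15 of 18 genes that ranked higher, 10 of them near 0 in the cells. *Clec10a*, a galactose-binding lectin of dendritic cells and macrophages, read 50.8, 58.2 and 28.8 RPKM against 0.0219, 0.0257 and 0.0224 FPKM. *Ccr7*, the receptor that guides mature dendritic cells to lymph nodes, read 3.96, 3.90 and 3.42 RPKM with 0 in the plates. *Xcr1*, which marks the cross-presenting subset, was lower, at 1.35, 0.514 and 1.58 RPKM against 0.0565, 0.0222 and 0.0462 FPKM, and did not meet the call.

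Mast cell genes were high and neutrophil genes were low. Of 9 mast cell and basophil genes 8 ranked higher. *Tpsb2*, a tryptase, read 53.6, 25.5 and 47.2 RPKM, *Mcpt4*, a chymase of connective tissue mast cells, 54.7, 27.7 and 39.5 RPKM, and *Cpa3*, mast cell carboxypeptidase, 50.1, 16.1 and 35.2 RPKM, and none had any FPKM in the cells. All were lowest in tumor 2. The exception was *Mcpt8*, a basophil protease, at 0.712, 1.26 and 1.04 RPKM, which the line itself read at 4.42, 5.00 and 5.30 FPKM, so it ranked 27.3 points lower. Of 16 neutrophil genes 7 ranked higher and 1 ranked lower. *S100a9*, a calprotectin subunit, read 4.14, 11.8 and 5.45 RPKM with 0 in the cells, while the granule genes *Mpo*, at 0, 0.00801 and 0.0160 RPKM, and *Ngp*, at 0, 0.0226 and 0 RPKM, were close to absent in the tumors too.

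T cell genes were present at moderate levels. Of 22 genes 16 ranked higher, 5 of them near 0 in the cells, with a median difference of 23.1 points. *Cd3g*, part of the CD3 signaling complex of T cells, read 10.8, 5.67 and 10.3 RPKM and *Cd4*, the helper coreceptor, 3.78, 1.93 and 5.15 RPKM, and both were listed at 0 in the plates. *Cd8a*, the coreceptor of cytotoxic T cells, was lower, at 0.573, 0.486 and 1.41 RPKM against 0, 0.0218 and 0 FPKM. *Foxp3*, the factor that defines regulatory T cells, read 5.71, 7.57 and 5.67 RPKM, but the plates read 0.757, 0.763 and 0.827 FPKM, and at 19.1 points it fell just short of the call. *Cd247*, the ζ chain of the receptor, and *Sla2*, an adaptor that dampens its signal, were read in the line at 1.26 to 1.63 and 14.9 to 18.4 FPKM, and did not separate the groups.

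Cytotoxic and natural killer genes ranked higher in 19 of 21 cases, with 14 near 0 in the cells and a median difference of 40.2 points. *Nkg7*, a granule protein of killer cells, read 6.87, 9.44 and 10.7 RPKM and *Xcl1*, the lymphotactin that they secrete, 23.1, 13.4 and 18.8 RPKM, with 0 in every plate. The granzymes *Gzmc*, at 61.7, 20.5 and 12.4 RPKM, and *Gzmf*, at 28.8, 10.9 and 5.90 RPKM, were highest in tumor 1 and listed at 0 in the cells. These granzymes are close copies of each other, so their separate levels are uncertain. *Gzme* was read in the cells as well, at 1.33, 1.72 and 1.54 FPKM against 15.5, 8.56 and 5.80 RPKM, and its difference of 20.3 points turned to -2.66 in the sh4 arm.

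B cell genes were low in the tumors, with a median percentile of 30.6 to 35.4 against 13.6 to 28.3 in the plates. Of 13 B and plasma cell genes 3 (23.1%) ranked higher, beside 10.2% of all genes. The list's median difference of 10.3 points became -0.02 on the median-centred log2 scale. The defining marker *Ms4a1*, which encodes CD20, was at or near 0 in the tumors, at 0.0321, 0.0107 and 0 RPKM. *Cd79b*, the β chain beside the B cell receptor, read 1.95, 2.58 and 2.79 RPKM with 0 in the plates, while its partner *Cd79a* read 0.0755, 0.0946 and 0.132 RPKM against 0.128, 0.191 and 0.0868 FPKM.

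The stroma was the next block. Of 19 fibroblast genes 17 ranked higher and 14 were near 0 in the cells, with a median difference of 39.3 points. *Dcn*, the small proteoglycan decorin, read 163, 47.1 and 83.9 RPKM against 0, 0 and 0.00589 FPKM, and *Lum*, lumican, 103, 24.8 and 45.6 RPKM with 0 in the plates. *Postn*, periostin, a matrix protein of activated fibroblasts, read 381, 117 and 353 RPKM against 0.00376, 0.00323 and 0 FPKM. Each was lowest in tumor 2. *Pdgfra*, the receptor that marks fibroblasts, read 8.59, 3.08 and 4.45 RPKM against 0.281, 0.301 and 0.252 FPKM. *Twist1*, a mesenchymal transcription factor, was on the list but was not called. The line read 12.7, 15.3 and 15.02 FPKM and the tumors 14.5, 12.1 and 12.8 RPKM.

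Among 30 collagen genes 13 ranked higher and 10 were near 0 in the cells. The fibrillar chains led: *Col3a1* read 395, 220 and 192 RPKM against 0, 0.00418 and 0 FPKM, *Col1a1* 169, 80.6 and 159 RPKM against 0.0681, 0.0466 and 0.0605 FPKM, and *Col1a2* 189, 78.8 and 174 RPKM against 0.000664, 0.0510 and 0.0116 FPKM. Other chains were made by the line itself and did not meet the call. *Col18a1*, the source of endostatin, read 36.3, 59.8 and 46.8 RPKM against 20.6, 19.9 and 19.7 FPKM, and *Col5a1* 28.5, 24.9 and 29.6 RPKM against 8.70, 7.82 and 8.97 FPKM. The matrix thus had a set of chains listed at or near 0 in culture and a set read in both.

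The non-collagenous matrix showed the same mix. Of 33 glycoproteins and proteoglycans 16 ranked higher. *Bgn*, biglycan, read 142, 47.8 and 190 RPKM and was listed at 0 in the cells, and *Fn1*, fibronectin, read 44.4, 26.9 and 28.4 RPKM against 1.71, 1.05 and 0.8999 FPKM. *Spp1*, the secreted glycoprotein osteopontin, was among the strongest genes of the line, at 454, 560 and 553 FPKM against 196, 203 and 244 RPKM, and *Sparc* was at the top of both groups, at 510, 381 and 465 RPKM against 88.3, 99.0 and 100 FPKM. Laminin γ1, *Lamc1*, ranked 16.1 points lower, at 14.03, 9.63 and 15.9 RPKM against 42.6, 43.3 and 43.1 FPKM, short of the call. Of 21 metalloproteinases and inhibitors 10 ranked higher. *Mmp13*, a collagenase, varied widely, at 174, 5.39 and 60.1 RPKM against 0.371, 0.374 and 0.299 FPKM, and *Mmp2*, a gelatinase, read 90.1, 21.5 and 46.4 RPKM against 0.307, 0.270 and 0.214 FPKM. *Mmp3*, stromelysin, was already read in culture, at 18.4, 25.4 and 24.3 FPKM against 153, 81.2 and 69.4 RPKM.

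Vessels were read at lower levels than leukocytes and fibroblasts. Of 20 endothelial genes 9 ranked higher and 5 were near 0 in the cells, with a median difference of 17.6 points. *Pecam1*, the CD31 adhesion molecule, read 8.16, 7.40 and 7.88 RPKM against 0.0184, 0.0755 and 0.0213 FPKM, with little spread among the tumors. *Tie1*, an endothelial receptor kinase, read 1.16, 1.62 and 1.06 RPKM with 0 in the cells, and *Cdh5*, VE-cadherin, 2.78, 1.71 and 2.96 RPKM against 0.0574, 0.0406 and 0.0772 FPKM, short of the call at 16.8 points. *Flt1*, a VEGF receptor, did not separate the groups, at 2.79, 2.95 and 2.93 RPKM against 1.64, 1.93 and 1.76 FPKM. Lymphatic markers were mixed, with *Lyve1*, which macrophages can also express, at 3.83, 3.93 and 1.27 RPKM and 0 in the cells, and *Prox1*, the factor that defines lymphatic endothelium, listed at 0 in all 6 libraries. Of the 7 lymphatic genes 2 ranked higher.

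Pericyte and smooth muscle genes ranked higher in 8 of 15 cases. *Rgs5*, a pericyte marker, read 3.86, 3.44 and 3.72 RPKM against 0, 0 and 0.00807 FPKM. *Acta2*, smooth muscle actin, which activated fibroblasts also make, read 17.5, 16.98 and 45.3 RPKM against 0.717, 0.414 and 0.427 FPKM, highest in tumor 3. *Myh11*, the myosin of mature smooth muscle, stayed low in both, at 0.208, 0.467 and 0.274 RPKM against 0.0616, 0.0575 and 0.0405 FPKM, and was not called. Of 8 Schwann cell genes none was called, and of 9 skin genes only *Ivl*, a protein of the horny layer, was, at 0, 0.0114 and 0.0114 RPKM against 0.119, 0.171 and 0.104 FPKM.

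**Figure D3:**
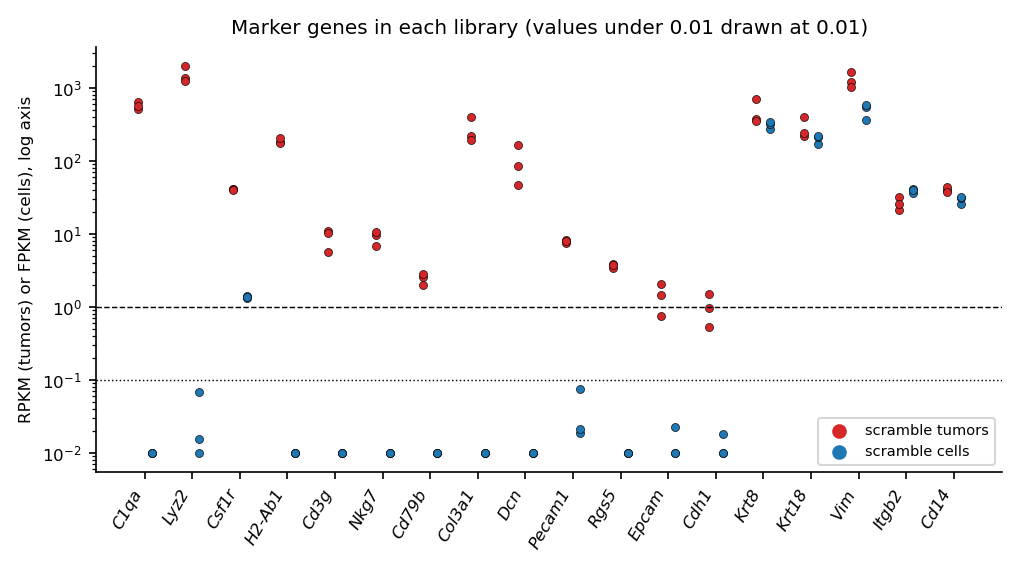
Values of 18 marker genes in each library on a log axis, in RPKM for 3 scramble tumors (red) and FPKM for 3 scramble plates (blue), with values under 0.01 drawn at 0.01; the dotted line is at 0.1 and the dashed line at 1. Macrophage, lymphocyte and fibroblast genes lie above 1 in the tumors and mostly at the bottom in the plates, while *Krt8*, *Krt18*, *Vim*, *Itgb2* and *Cd14* are high in both groups.

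Some host genes differed widely between the 3 tumors. For the 635 near 0 genes the median ratio of the highest to the lowest tumor was 1.72, and 414 of them were under 2. In 13 genes the ratio was 10 or more, and in 9 of these tumor 2 was highest. Fat genes were among them. *Fabp4*, the fatty acid carrier of adipocytes, read 21.4, 1514 and 163 RPKM, *Cfd*, the adipocyte protease adipsin, 5.96, 810 and 64.4 RPKM, and *Adipoq*, the fat hormone adiponectin, 1.43, 84.2 and 16.7 RPKM. The plates read at most 0.0355 FPKM for any of the 3 genes. Of 18 adipocyte genes 10 ranked higher, and their summed level ran from 49.4 RPKM in the lowest tumor to 2691 RPKM in the highest. The list's median difference was 23.5 points, and 16.4 points without tumor 2. *Mup2*, a major urinary protein gene with near-identical copies, so that its own level is uncertain, followed the same order, at 2.21, 590 and 29.9 RPKM.

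Muscle genes stood out in tumor 1 instead. *Ckm*, muscle creatine kinase, read 10.6, 0.132 and 0.0880 RPKM, *Tnnc2*, fast troponin C, 22.8, 0.288 and 0.192 RPKM, and *Acta1*, skeletal actin, 21.6, 0.205 and 0.322 RPKM. The cells read *Ckm* and *Tnnc2* at or near 0 and *Acta1* at 0.311, 0.380 and 0.327 FPKM. Of 15 muscle genes 4 ranked higher, and without tumor 1 only 1 did, with the list's median difference at 1.84 in place of 10.2 points. Blood differed as well. *Hbb-b1*, a β globin, read 96.0, 340 and 35.0 RPKM against 0.0141, 0 and 0 FPKM, and *Hba-a2*, an α globin with a near-identical copy, 265, 463 and 156 RPKM against 0.0163, 0 and 0 FPKM. *Alas2*, needed for heme in maturing red cells, was read at similar low values in both, at 0.733, 0.946 and 0.482 RPKM against 1.07, 0.505 and 0.629 FPKM.

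**Figure D4:**
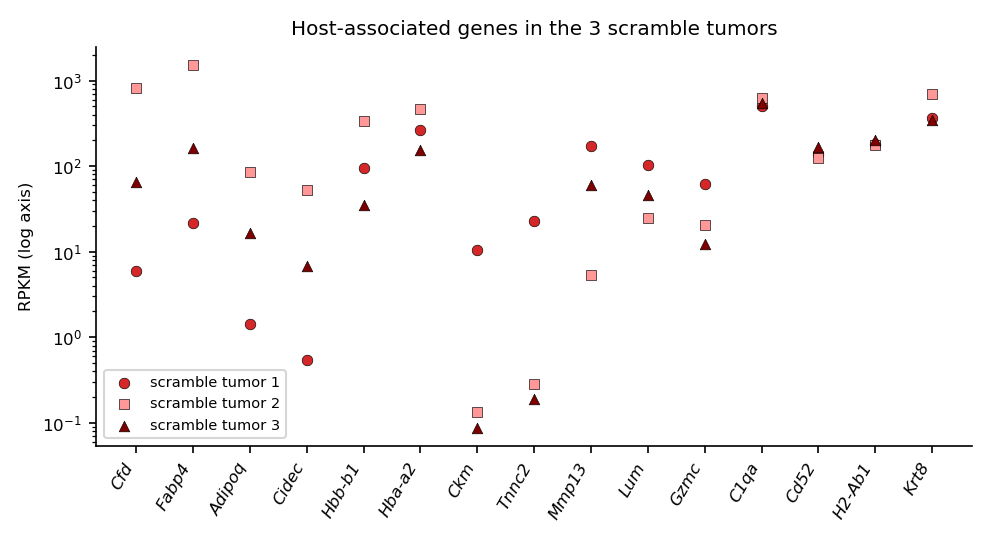
Values of 15 genes in scramble tumors 1, 2 and 3 (circles, squares and triangles) in RPKM on a log axis. Adipocyte genes are highest in tumor 2, *Ckm* and *Tnnc2* in tumor 1, and *C1qa*, *Cd52* and *H2-Ab1* are nearly equal in the 3 tumors.

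Lipid handling overlapped with fat and macrophages. Of 17 genes 10 ranked higher. *Apoe*, a lipid carrier that macrophages secrete, read 1435, 2207 and 1461 RPKM against 2.61, 3.12 and 2.50 FPKM, and *Cd36*, a fatty acid transporter, 1.51, 13.98 and 4.88 RPKM with 0 in the cells.

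The keratins of Mvt1 ranked alike in the tumors. *Krt8* and *Krt18*, the paired keratins of simple epithelium, read 366, 691 and 347 RPKM and 219, 399 and 236 RPKM in the tumors, and 269, 316 and 333 FPKM and 167, 209 and 217 FPKM in the plates. Both were above percentile 98.9 in every group mean. *Epcam*, an epithelial adhesion molecule, was close to absent in culture, at 0.0228, 0 and 0 FPKM, and read 1.44, 2.04 and 0.749 RPKM in the tumors, and *Cdh1*, E-cadherin, followed it at 1.47, 0.533 and 0.958 RPKM against 0, 0.0180 and 0 FPKM. Of the 4 epithelial markers fixed for this comparison, the line thus showed the keratins and not *Epcam* or *Cdh1*. Among 24 luminal genes 3 (12.5%) ranked higher and 1 (4.17%) ranked lower, beside 10.2% and 8.31% of all genes. None of 16 basal and 1 of 19 milk genes (5.26%) was called, the latter *Wap*, a whey protein, at 0 in all tumors against 0.131, 0.0809 and 0.0535 FPKM. The shares of the luminal, basal and milk lists were thus near or under those of all genes. The medians of the luminal, basal and milk lists were 1.36, 1.58 and 0.55 points, and without tumor 2 they were -1.14, -2.00 and -2.00 points.

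Mesenchymal genes were mixed, with a median percentile of 51.3 to 56.9 in the plates and 65.1 to 75.7 in the tumors. *Vim*, vimentin, read 361, 540 and 572 FPKM in culture and 1200, 1637 and 1031 RPKM in the tumors, and *S100a4*, a calcium-binding protein of motile cells, 748, 944 and 895 FPKM against 2213, 4011 and 1891 RPKM, with differences of -0.27 and -0.09 points. Others were near 0 in culture. *Tgfbi*, a secreted adhesion protein, read 48.4, 40.6 and 38.5 RPKM against 0.0340, 0 and 0 FPKM, and *Cdh11*, a cadherin of fibroblasts, 8.67, 1.81 and 12.9 RPKM against 0.00244, 0 and 0.00157 FPKM. Of 15 genes on the list 5 ranked higher. *Myc* and *Vegfa*, the products of the transgenes, were not called, with *Myc* at 145, 108 and 229 RPKM against 135, 128 and 121 FPKM, and *Vegfa* at 8.83, 9.53 and 10.5 RPKM against 3.45, 3.76 and 4.17 FPKM. The endogenous genes and the transgenes cannot be told apart in these values.

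Some interferon responsive genes ranked higher. Of 35 genes of type I interferon 16 were called higher and none lower, and only 1 was near 0 in the cells. *Irf7*, the factor that amplifies interferon production, read 25.2, 25.7 and 27.7 RPKM against 0.634, 0.920 and 0.855 FPKM, and *Zbp1*, a sensor of Z-form nucleic acid, 22.0, 12.6 and 24.8 RPKM against 0.00142, 0.0332 and 0.0235 FPKM. Others were already read in culture and were not called. *Ifitm3*, which blocks viral entry, read 382, 264 and 325 RPKM against 93.6, 100 and 101.5 FPKM, and *Bst2*, tetherin, 128, 228 and 135 RPKM against 15.4, 17.1 and 17.4 FPKM. *Ifnb1* itself was at or near 0 throughout, at 0, 0.0285 and 0 RPKM and 0, 0 and 0.0432 FPKM.

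For interferon gamma 8 of 25 genes ranked higher, and 13 did in the sh4 arm. *Ifng*, the cytokine made by T and NK cells, read 0.516, 0.584 and 0.650 RPKM with 0 in the plates. *Cxcl9*, a chemokine that it induces, read 7.80, 4.66 and 23.4 RPKM with 0 in the plates, and *Ubd*, a ubiquitin-like modifier, 2.05, 3.46 and 3.29 RPKM with 0. *Gbp2*, a guanylate-binding protein, was read in culture at 16.9, 17.98 and 18.9 FPKM against 66.0, 49.8 and 69.2 RPKM, and *Cd274*, which encodes PD-L1, at 1.34, 1.65 and 1.39 FPKM against 2.76, 1.57 and 4.06 RPKM, and neither was called.

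Chemokines were the secreted family with the most calls. Of 34 genes 23 ranked higher, none lower, and 13 were near 0 in the cells, with a median difference of 38.8 points. *Ccl8*, a monocyte attractant, was the highest in the tumors, at 1259, 1029 and 658 RPKM against 0.427, 0.0803 and 0.322 FPKM. *Ccl12*, a ligand of CCR2, read 63.1, 64.2 and 114 RPKM and was listed at 0 in the plates, and *Ccl7*, another monocyte attractant, 44.1, 44.2 and 58.7 RPKM against 0.179, 0.180 and 0.193 FPKM. *Ccl2*, the main ligand of CCR2, came from the line too, at 36.6, 44.9 and 42.8 FPKM against 79.5, 59.9 and 63.8 RPKM, and did not meet the call. *Cx3cl1*, at 16.8, 18.1 and 17.1 FPKM, and the neutrophil attractant *Cxcl1*, at 6.22, 9.00 and 8.69 FPKM, were likewise read in culture, and read 15.6, 14.01 and 16.2 RPKM and 6.03, 4.43 and 5.87 RPKM in the tumors.

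Of 18 chemokine receptors 7 ranked higher, 1 ranked lower and 10 were not called. *Ccr2* read 22.3, 14.5 and 21.5 RPKM and *Ccr1* 18.9, 11.0 and 23.7 RPKM, and both were listed at 0 in the cells. *Cx3cr1*, the receptor for CX3CL1 on monocytes and macrophages, read 13.2, 7.50 and 14.8 RPKM against 0.171, 0.108 and 0.0878 FPKM. The receptor that ranked lower was *Cxcr3*, which T cells use to follow CXCL9. It was read in the line at 4.02, 4.60 and 4.92 FPKM, in the tumors at 1.46, 1.58 and 1.70 RPKM, and differed by -21.5 points. In the sh4 arm *Cxcr3* differed by -18.7 points and was not called, as no receptor ranked lower there.

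Most growth factor and cytokine genes were not called, but the share called higher was above that of all genes. Of 46 ligands 9 (19.6%) ranked higher and 1 (2.17%) lower, and of 45 receptors 14 (31.1%) ranked higher and 2 (4.44%) lower. Over all genes these shares were 10.2% higher and 8.31% lower. The median differences were 7.96 points for the ligands and 0.09 points for the receptors. For the CSF1 pathway, which feeds macrophages, the ligands *Csf1*, at 16.1, 16.5 and 16.6 FPKM, and *Il34*, at 10.2, 11.6 and 10.9 FPKM, were read in the plates, and read 10.7, 10.5 and 13.3 RPKM and 14.5, 19.4 and 16.8 RPKM in the tumors, while their receptor was mainly read in the tumors as given above. The receptors of CSF2, *Csf2ra* at 6.18, 6.87 and 6.62 RPKM and *Csf2rb* at 5.5996, 4.41 and 4.74 RPKM, were listed at 0 in the cells, as was *Sirpa* at 28.2, 24.6 and 28.6 RPKM, the phagocyte receptor for CD47. *Cd47*, the signal that restrains phagocytosis, was read in both, at 51.3, 29.4 and 51.3 RPKM against 11.3, 9.44 and 8.94 FPKM. These values show where each gene was read, and no interaction was measured.

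Other pairs had other patterns. *Pdgfrb*, the receptor of pericytes and fibroblasts, read 6.38, 3.36 and 4.97 RPKM against 0.00329, 0.00921 and 0.00575 FPKM, and its ligand *Pdgfb* 2.44, 2.67 and 2.58 RPKM against 0.0103, 0.0143 and 0 FPKM. *Igf1*, a growth factor of stroma and macrophages, read 6.55, 2.82 and 3.82 RPKM with 0 in the cells, whereas its receptor *Igf1r* was higher in the line, at 11.4, 7.92 and 8.90 FPKM against 3.33, 2.18 and 3.64 RPKM, and ranked 25.9 points lower in the tumors. *Axl*, a receptor kinase for GAS6, read 25.1, 25.7 and 38.4 RPKM against 0.863, 0.909 and 0.773 FPKM, and *Gas6* 28.8, 54.9 and 24.2 RPKM against 2.65, 2.56 and 2.99 FPKM. *Il1b*, the inflammatory cytokine, read 23.3, 6.19 and 19.4 RPKM against 0.00137, 0.00558 and 0 FPKM, while *Met*, the receptor of hepatocyte growth factor, was high in the line, at 38.8, 42.3 and 43.0 FPKM against 12.8, 10.7 and 13.9 RPKM.

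Few genes for basic functions were called, but most ranked near the top of the cells, where a call of higher is not possible. Of 12 reference genes only *Tfrc*, the transferrin receptor, was called, at 7.34, 3.36 and 7.68 RPKM against 18.9, 22.2 and 21.7 FPKM. *Gapdh* was at percentile 99.5 in both groups. Of 74 cytosolic ribosomal protein genes 4 ranked higher, of 54 oxidative phosphorylation genes 9 and of 31 proteasome genes 7. With a call at 10 points these were 16, 22 and 12 genes, and on the log2 scales the median ribosomal protein gene was 3.43 to 4.55 higher in the tumors. Some of these calls rest on cell values that are low for genes every cell needs: *Rps21* read 3.77, 4.47 and 5.11 FPKM against 1049, 1596 and 1021 RPKM, and *Psmb7*, a catalytic proteasome subunit, 1.71, 1.79 and 1.68 FPKM against 57.5, 82.8 and 52.9 RPKM. Of the cell values, 51.2% to 52.6% of the summed FPKM lay in assembled loci with no gene name, and their part in these values was not tested. Over the 159 genes of the 3 groups, 20 (12.6%) ranked higher, beside 10.2% of all genes. As most of the 159 could not be called higher, these shares cannot be compared. Of the 159 genes, 22 had a mean under 6 FPKM in the plates. The lowest value in a plate was 1.39 FPKM, for *Psmd14*, and none of the 159 was near 0.

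Some genes of mitosis ranked lower. Of 30 genes 7 (23.3%) were called lower, beside 8.31% of all genes, and none higher. The median difference of the list was -7.44 points, and its median percentile was 78.7 to 79.7 in the tumors and 91.7 to 92.2 in the plates. *Mki67*, the proliferation antigen Ki-67, read 10.4, 8.24 and 9.96 RPKM against 80.4, 70.2 and 75.4 FPKM. *Cenpf* and *Cenpe*, long proteins of the kinetochore, read 2.85, 2.24 and 2.87 RPKM against 19.7, 18.5 and 17.8 FPKM, and 3.96, 3.53 and 3.79 RPKM against 17.3, 17.2 and 13.97 FPKM. *Cdk1*, the mitotic kinase, was not called, at 38.8, 41.7 and 34.4 RPKM against 15.04, 18.1 and 17.8 FPKM. Length moved with the calls over all genes: among the 1900 genes with the longest transcripts 20.1% ranked lower and 5.47% higher, and among 1899 genes with transcripts of 1240 to 1720 bases 4.53% and 14.1%. With percentiles taken within 10 classes of transcript length, 8 of the 30 mitosis genes ranked lower, and the median difference was -8.47 points. DNA replication showed little, with 1 of 36 genes called lower and a median difference of -4.03 points, although the list's median percentile was not lower in the tumors, at 76.9 to 79.6 against 76.4 to 77.8.

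Apart from p53 targets, the metabolic and stress lists given here had few calls. Of 22 cholesterol synthesis genes 3 (13.6%) ranked lower, beside 8.31% of all genes, among them *Sc5d*, a late enzyme of the pathway, at 3.61, 2.48 and 4.20 RPKM against 7.85, 9.02 and 9.07 FPKM, and *Stard4*, a sterol carrier, at 1.09, 0.638 and 0.585 RPKM against 3.03, 3.65 and 3.57 FPKM. Of 20 genes of the amino acid response 3 (15%) ranked lower, among them *Chac1*, which degrades glutathione, at 0.369, 0.403 and 0.386 RPKM against 3.06, 3.92 and 3.76 FPKM. Among 13 p53 targets 5 (38.5%) ranked lower and 2 (15.4%) higher, beside 8.31% and 10.2% of all genes. *Mdm2*, the ligase that restrains p53, read 6.32, 7.84 and 7.54 RPKM against 27.3, 31.7 and 32.3 FPKM. *Cdkn2a*, a tumor suppressor locus, was listed at 0 in the plates and read 0.470, 0.418 and 0.496 RPKM in the tumors. Hypoxia genes were called in 4 of 25 cases (16%), all higher, beside 10.2% of all genes, such as *Ndrg1*, at 76.4, 61.2 and 80.6 RPKM against 5.12, 5.94 and 5.49 FPKM, and *P4ha2*, a collagen prolyl hydroxylase, at 16.5, 11.6 and 17.9 RPKM against 0.718, 0.696 and 0.720 FPKM.

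RNase H2 genes are the subject of the series, and *Rnaseh2c* was not targeted in these samples. It read 26.9, 52.0 and 25.9 RPKM in the tumors and 5.83, 7.06 and 5.34 FPKM in the plates, a difference of 14.96 points that did not meet the call. *Rnaseh2a*, the catalytic subunit, read 14.6, 25.4 and 18.1 RPKM against 4.50, 5.31 and 5.21 FPKM, likewise short of it, while *Rnaseh2b*, the other scaffold, ranked 32.8 points higher, at 13.7, 10.5 and 11.99 RPKM against 0.534, 0.418 and 0.481 FPKM. These cell values of *Rnaseh2b* are low for a subunit that the paper gives as required for the enzyme to work. The part of the assembled loci with no gene name in them was not tested. *Samhd1*, a nucleotide hydrolase abundant in myeloid cells, and *Dnase2a*, the DNase of lysosomes, were the other genes called higher of the 10 in this group, by 30.8 and 25.1 points. Of 14 genes of the cGAS-STING pathway only *Irf7* was called, as higher (7.14%), beside 10.2% of all genes. The list's median percentile was 74.0 to 75.7 in the plates, which left many of its genes little or no room for a call of higher. The missed calls thus do not show equal levels. *Tmem173*, which encodes STING, read 35.5, 28.3 and 35.4 RPKM against 14.02, 16.5 and 16.2 FPKM, and ranked alike in both groups.

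*Scarna10*, a small Cajal body RNA, had the largest loss of rank, at -88.1 points, and was listed at 0 in the tumors and read 273, 299 and 308 FPKM in the plates. Of 91 genes annotated as small nucleolar RNA 44 (48.4%) ranked lower, among them all 9 small Cajal body RNA genes, and of 390 microRNA genes 124 (31.8%), beside 8.31% of all genes and 1373 of 18170 protein-coding genes (7.56%). These classes made up 34 of the 53 genes near 0 in the tumors, with 11 small nucleolar RNAs and 23 microRNAs. *Malat1*, a long nuclear RNA that ends in a triple helix, read 16.5, 17.1 and 33.6 RPKM against 1376, 1358 and 1263 FPKM, and was not called, at -12.4 points. The study's methods give mRNA libraries for the tumors and total RNA for the cells, whereas the labels name total RNA for both, and the part of RNA selection in these losses was not tested.

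Replication-dependent histones made the largest block of coding genes among the losses. Their messages end in a stem-loop in place of a poly(A) tail, and the stem-loop binding protein holds them through translation in S phase. Of 65 listed genes 47 were measured, and 41 of these (87.2%) ranked lower, beside 8.31% of all genes, with a median difference of -49.4 points. Their summed level was 189 to 252 RPKM in a tumor and 10289 to 13801 FPKM in a plate, which was 0.0429% to 0.0627% and 8.37% to 9.77% of the summed values. The linker histone *Hist1h1b* read 0.168, 0.728 and 0.0838 RPKM against 423, 506 and 500 FPKM, and *Hist1h4f*, an H4 gene, 0.0600, 0.541 and 0.240 RPKM against 463, 618 and 661 FPKM. None of the 10 polyadenylated histone variants was called. *H3f3b*, the replacement histone H3.3, read 336, 239 and 317 RPKM against 109, 132 and 131 FPKM. Many of these histone genes are near-identical copies, so single genes are uncertain where reads could be split, and the sum is not affected by splits within the list. By the study's methods the tumors were measured as mRNA and the cells as total RNA. The part of RNA selection in the lower ranks of the histone genes was not tested.

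The stem-loop was searched for in the 100 bases after the stop codon (build NCBIM37), as a stem of 6 paired bases that starts with GG, around a loop of 4 bases that starts with TT. It was found in 43 of the 47 replication-dependent genes (91.5%), in 1 of the 10 variants, *H2afx*, and in 53 of 18160 coding genes (0.292%). Of the 43 genes with it 39 ranked lower, and of the 4 without it 2 did. The sites of 4 genes are shown, 3 that ranked lower and *Hist1h1c*, which did not, with the stem and loop in capitals and 5 bases on each side, 5′ to 3′ on the gene's strand. The coordinates are of the capitals.
Hist1h1b, chr13:21871706-21871721, minus strand: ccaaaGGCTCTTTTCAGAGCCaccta
Hist1h4f, chr13:23643160-23643175, minus strand: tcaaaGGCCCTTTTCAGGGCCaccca
Hist1h4b, chr13:23849235-23849250, plus strand: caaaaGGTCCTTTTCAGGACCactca
Hist1h1c, chr13:23831381-23831396, plus strand: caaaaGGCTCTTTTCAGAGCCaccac
*Hist1h1c* has the same 16 letters as *Hist1h1b*, and read 116, 57.5 and 98.8 RPKM in the tumors against 296, 352 and 399 FPKM in the plates, a difference of -3.04 points. *Hist1h2bc*, at 49.1, 32.6 and 41.6 RPKM against 173, 224 and 248 FPKM, and *Hist1h4i*, at 13.7, 8.67 and 12.01 RPKM against 112, 150 and 162 FPKM, were other replication-dependent genes with the stem-loop that were not called.

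**Figure D5:**
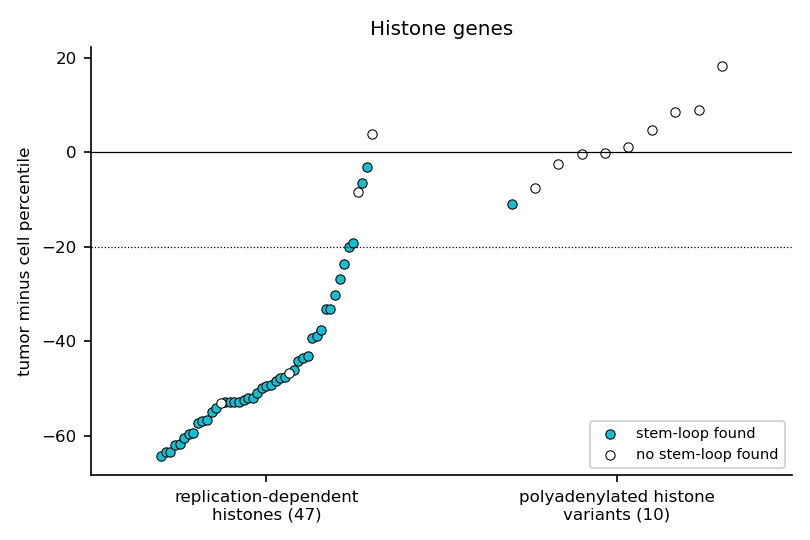
Difference of mean percentile, tumors minus cells, for 47 replication-dependent histone genes (left) and 10 polyadenylated histone variants (right), 1 point per gene, sorted within each group. Filled points are genes with a stem-loop in the 100 bases after the stop codon, open points those without, and the dotted line is at -20 points; 41 of 47 genes on the left and none on the right were called lower.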

How the data were processed

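Per the study's methods, the authors mapped tumor mRNA reads with TopHat to mm9 and Ensembl v70 transcripts after Trimmomatic trimming, and deposited RPKM per gene symbol for 20188 genes. For the cells they deposited FPKM from total RNA (the molecule the labels name for both groups) for 50667 Ensembl genes and 239874 assembled loci, which were not used; the counting tool is not given in the sources used here. The submitters' processing notes name STAR 2.7 and TopHat2 2.1.0 without roles. Lung metastasis samples were not used. Values of some genes are not reported here.

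Ensembl genes were matched to symbols with the GENCODE vM1 annotation. Of 19014 shared symbols 21 with several rows were left out. Percentiles used average ranks for ties, so a gene at 0 throughout has a difference of -2.23 points. The call rule was run on simulated data. All simulated libraries were drawn from the means and spread of the cell libraries, which vary less than the tumors. Of 18793 unchanged genes 28 were called. None of 50 genes was called at a log2 change of 1 or of 50 at -1, 26 of 50 at 4 and 41 of 50 at -4, so smaller changes are missed. The simulation held no change of table, unit or RNA selection, so it gives no rate of false calls for this comparison. Members and gene lists were chosen with earlier results of these data known. Named genes were the 15 with the largest difference in each direction, the extremes and the highest members of each list, the highest near 0 genes, fixed cell type markers, whole signaling lists, and genes of the study's text. *Hist1h4b* was added after its values were seen. Alternatives changed the call size, thresholds, gene filter, ties, length, scale, arm and libraries. Python 3.11.15, pandas 2.3.3 and numpy 2.4.6 were used.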

Additional observations from a re-analysis of the deposited data

Results flagged for a closer look

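*Cdk1*, the kinase of mitotic entry, moved in opposite directions in the 2 arms. Its tumor percentiles were all above the cell percentiles in the scramble arm, by 1.15 points on average, and all below them in the sh4 arm, by -1.38 points. The difference between the arms was not tested, and both values are far under the 20 points of a call.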

How the results depend on the processing

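The number of genes higher in the tumors, 1940, was 3789 with a call at 10 points, 923 at 30 points, 3491 on the median-centred log2 scale and 3372 as log2 share of the library's sum with a pseudocount of 0.1. The number lower, 1578, was 4200 at 10 points, 455 at 30 points, 2378 among genes of at least 1 in either group, 2700 on the median-centred scale, and 5966, 6430 and 5639 as log2 share with pseudocounts of 0.5, 0.1 and 1. The 635 genes near 0 in the cells were 283 with a ceiling of 0, 1037 with a ceiling of 0.5 and 211 with a floor of 5. The 53 genes near 0 in the tumors were 158 with a ceiling of 0.5, 12 with a floor of 5 and 19 among protein-coding genes. With each library left out in turn the 4 counts were 1935 to 1982, 1547 to 1624, 645 to 746 and 57 to 64. The median of all genes was -0.07 on the log2 share scale and -0.42 on the median-centred scale. Of 269 named genes called by rank, 268 kept their sign in every alternative, and *Gzme* turned to -2.66 points in the sh4 arm. Leaving out a library or changing the call size cannot turn the sign of a called gene, so those alternatives do not bear on it. Many of these genes were also named for their large differences in the same data. By size, percentiles within 10 length classes moved 415 of 669 named genes and 28 of 56 lists by more than the spread between replicates, the filter on low values 420 named genes (134 others stayed within it) and 35 lists, and the sh4 arm 296 named genes and 20 lists. With the filter on low values 14 endothelial genes were left, and their median fell from 17.6 to 10.5 points. No paired analysis was possible because the comparison comes from no test and the plates are not paired with the tumor experiments. The read depth of the cell table is unknown, so a value of 0 there has no stated limit.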
